A study of Homo sapiens with 24 samples.

Results

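The Krüppel-like factors (KLFs) described here were 10 genes, KLF2, KLF3, KLF4, KLF5, KLF6, KLF7, KLF9, KLF10, KLF11 and KLF15, out of 31204 genes that the array probes could be named for. They are a listed part of the family, set with earlier results of these data known, and other KLFs also had probes. The non-control probes that carry a transcript accession of the listed genes were used. These were 11 of the 58201 probes, with 2 probes for KLF6 and 1 for each other gene. The study profiled PLC/PRF/5 and SNU-449, established cell lines from human hepatocellular carcinoma (HCC), on 24 one-colour arrays, to see how inhibition of transforming growth factor beta (TGFβ) signalling acts in each. Each line was grown as control cultures, with recombinant human TGFβ1 at 1 ng/mL, with galunisertib (LY2157299), an inhibitor of the type 1 TGFβ receptor kinase, at 10 µM, and with both agents, with 3 independent cultures per group. The paper states that galunisertib also inhibits the type I receptors of activin and nodal. All 8 groups were starved of serum overnight and then kept for 16 h in their condition, so the controls were serum-starved as well.

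KLFs are zinc finger transcription factors that bind GC-rich and CACCC elements in promoters and enhancers. Through their other parts they fall into classes: KLF3 recruits the corepressor CtBP, KLF9, KLF10 and KLF11 recruit the corepressor SIN3A, and KLF2, KLF4, KLF5, KLF6 and KLF7 act mostly as activators, though KLF4 can also repress. KLF10 and KLF11 were first described as early genes induced by TGFβ, and KLF15 is known in liver for the control of amino acid and glucose metabolism.

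Levels are given as log2 of the processed spot intensity over the 75th percentile of the array, so that 0 stands for the 75th percentile. Values below a floor of -4.13 on this scale were set to it, and "well above background" is the call of the scanner software. Because probes differ in their brightness, each level is compared only with levels of the same probe. A change is said to have risen or fallen where its limma p, adjusted over all genes tested in that comparison, was below 0.05. The normexp background, an alternative used below, adds an offset of 50 intensity units, which by itself shrinks the log2 changes of dim probes. In bulk RNA, fewer cells with a transcript and less transcript per cell cannot be told apart.

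The arrays had 75th percentiles of 145 to 262 intensity units and 41.6% to 49.6% of probes well above background. Of the 4 hepatocyte genes listed, all were well above background on all 12 PLC/PRF/5 arrays. In SNU-449, ALB was so on 2 and APOB on 0 of 12 arrays, whereas SERPINA1 and TTR were so on all 12. All 4 were lower in the SNU-449 control cultures than in those of PLC/PRF/5. The mesenchymal genes VIM, CDH2 and SPARC were well above background on all 12 arrays of each line. All 3 were higher in the SNU-449 control cultures than in those of PLC/PRF/5, by 1.32 to 7.95 log2. Of the endothelial and leukocyte markers listed, PECAM1 was well above background on 0 of 24 arrays and CD3E on 0 arrays of SNU-449 and 4 of PLC/PRF/5, whereas VWF and CD14 were so on all 24, CDH5 on 5 and 8 arrays of the lines, and PTPRC on 11 and 12. The cultures were of established HCC lines, and the source of these marker signals was not tested. The direct TGFβ target SMAD7, which encodes an inhibitor of the pathway, rose with TGFβ1 by 0.65 log2 in SNU-449 and 0.80 log2 in the other line, and with galunisertib it fell by 1.90 and 0.44 log2. On every slide, the arrays with TGFβ1 lay in the second row and those without it in the first, so array row and TGFβ1 cannot be told apart.

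Of the 10 KLFs, 9 were tested in each line. KLF2, KLF3, KLF4, KLF5, KLF6, KLF9, KLF10 and KLF11 were well above background on all 24 arrays, KLF6 through its brighter probe, and KLF7 was so on 22. KLF15 lay at the floor on each of the 24 arrays and was called well above background on 0 of them, so no comparison of it was made. The plot of levels by array shows the other 9 genes.

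**Figure D1:**
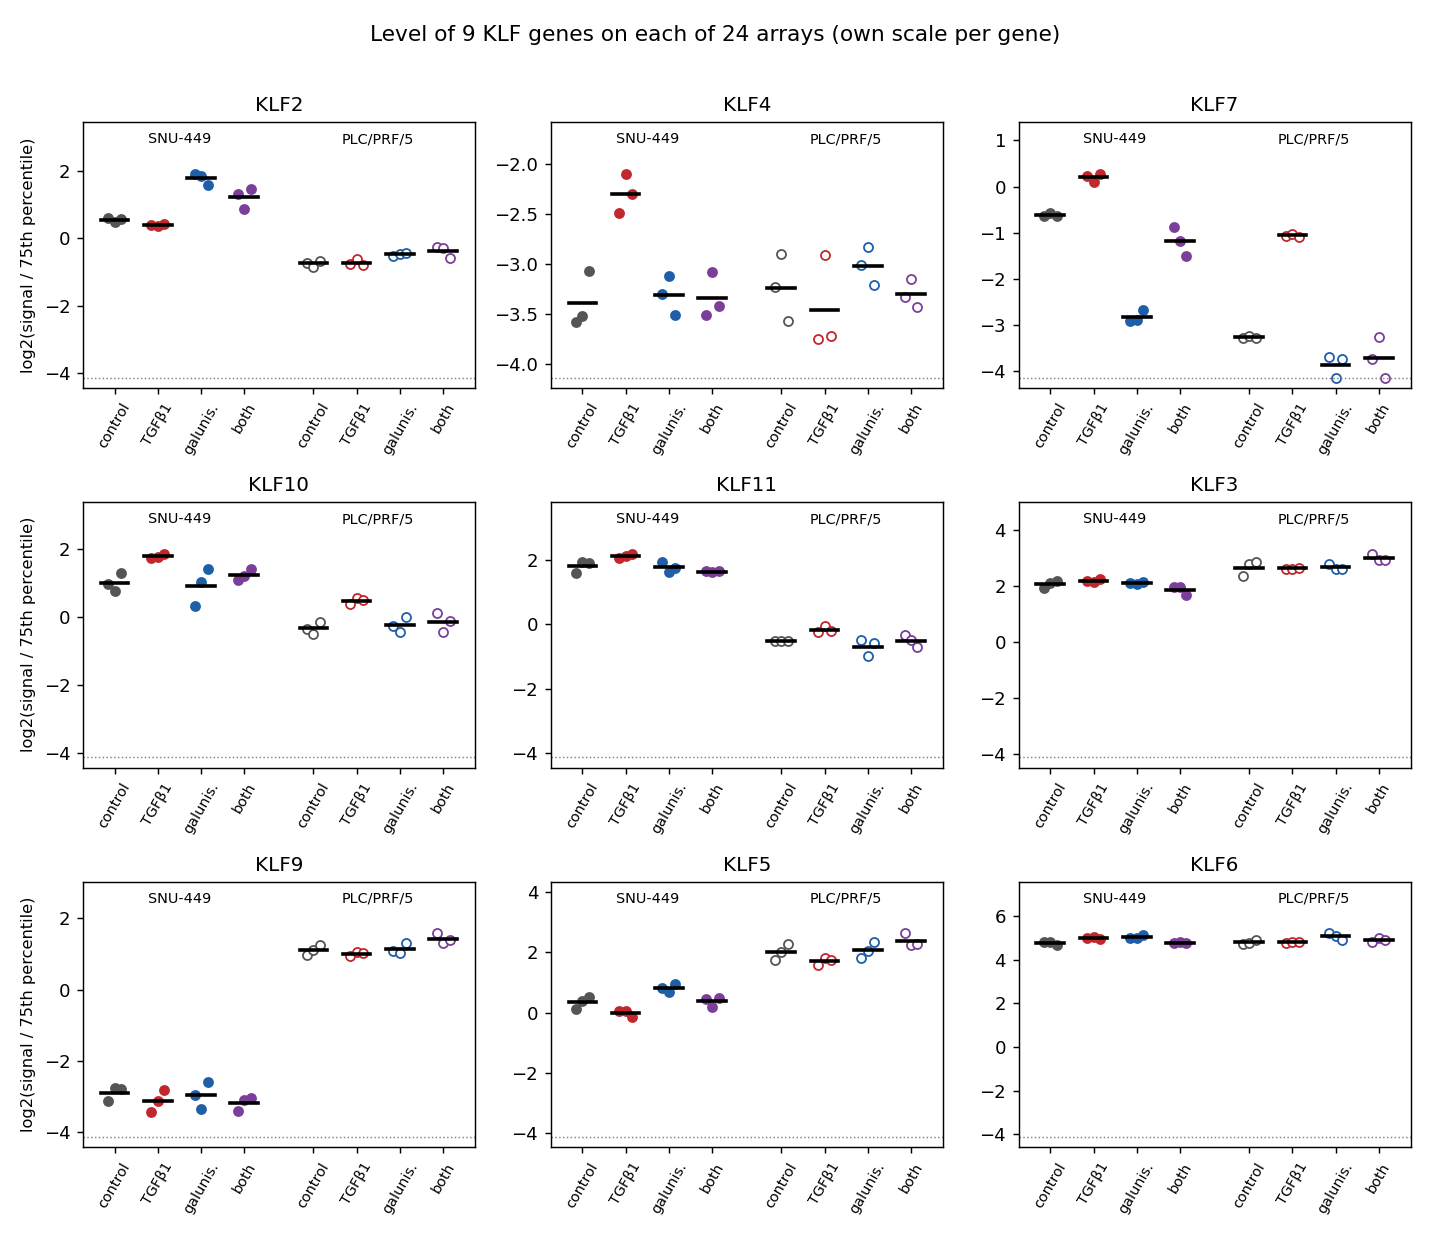
Log2 level (signal over the array's 75th percentile) of 9 KLF genes on each of 24 arrays, with 1 point per culture, filled for SNU-449 and open for PLC/PRF/5, a bar at the mean of 3 arrays and a dotted line at the floor of -4.13. KLF7 stands highest in the TGFβ1 group of each line, KLF4 in the TGFβ1 group of SNU-449 alone, and KLF2 in the galunisertib group of SNU-449. KLF9 lies between 0.93 and 1.57 in PLC/PRF/5 and between -3.42 and -2.58 in SNU-449.

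KLF7 had the smallest F-test p over the 4 conditions of the 9 KLFs in each line. Its change was not the largest in every comparison. With TGFβ1 in SNU-449, KLF4 rose by 1.08 log2 and KLF7 by 0.81. KLF7 is a broadly expressed activator known for its part in neuronal outgrowth. The RefSeq table of promoter windows holds 4 start sites for KLF7, all inside the gene, whose annotated 5′ end is at chr2:207173851. The probe does not tell which of these start sites was in use. Shown here, because they differ most in base composition and motifs, are the 250 bases before 2 of them, on the minus strand of GRCh38.p14, 5′ to 3′, with capitals for the letters GGGCGG (GC box), CACCC (KLF box) and CAGAC (SMAD box), each searched on both strands.
KLF7, chr2:207166857-207167106: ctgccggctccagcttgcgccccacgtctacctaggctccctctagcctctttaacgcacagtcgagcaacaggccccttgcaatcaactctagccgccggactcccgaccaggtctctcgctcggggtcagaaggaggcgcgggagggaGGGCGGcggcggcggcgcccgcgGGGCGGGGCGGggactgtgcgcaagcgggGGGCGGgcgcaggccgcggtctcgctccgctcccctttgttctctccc
KLF7, chr2:207134138-207134387: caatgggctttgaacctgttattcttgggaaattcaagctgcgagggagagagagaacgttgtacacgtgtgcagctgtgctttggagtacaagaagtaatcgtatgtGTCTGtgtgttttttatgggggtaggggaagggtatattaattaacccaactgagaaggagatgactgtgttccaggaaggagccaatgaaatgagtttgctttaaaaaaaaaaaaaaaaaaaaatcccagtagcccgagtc
The first of these is 72% G or C and holds 4 GC boxes, and the second is 41.6% G or C and holds 1 SMAD box. Neither holds a match of the other motifs.

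In SNU-449, KLF7 stood at -0.65, -0.56 and -0.64 on the control arrays and at 0.23, 0.09 and 0.28 with TGFβ1. It stood at -2.91, -2.88 and -2.67 with galunisertib alone, and at -0.87, -1.19 and -1.51 with both agents. The 4 groups did not overlap, and they ran from TGFβ1 at the top through control and the combination to galunisertib alone. KLF7 rose with TGFβ1 by 0.81 log2 (SE 0.14, adjusted p = 0.0052), a 1.76-fold change. It fell with galunisertib alone by 2.21 log2 (SE 0.14, adjusted p = 0.000135), a 4.61-fold change in cultures that had no TGFβ1 added. Galunisertib added to TGFβ1 lowered it by 1.39 log2 (SE 0.14, adjusted p = 0.000122), yet TGFβ1 still raised it in the presence of galunisertib, by 1.63 log2 (SE 0.14, adjusted p = 0.000939). This last effect was 2.04, 1.69 and 1.17 log2 within slides 1, 2 and 3. It did not pass when only the compared groups were fitted, nor by the methods' t-test (adjusted p = 0.205). With the normexp background, the change with galunisertib alone was -1.08 log2 and that with TGFβ1 in its presence 0.74 log2, and both passed the test.

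KLF7 was dim on the PLC/PRF/5 control arrays, at -3.27, -3.22 and -3.27, and stood at -1.06, -1.02 and -1.09 with TGFβ1. With galunisertib alone, it stood at -3.69, -4.13 and -3.74, of which the middle value is the floor, and with both agents at -3.74, -3.26 and -4.13, of which the last is the floor. The TGFβ1 arrays stood above all others of the line, and the groups with galunisertib each had 1 array at the floor. KLF7 rose with TGFβ1 by 2.20 log2 (SE 0.19, adjusted p = 5.2e-05), a 4.59-fold change, with 2.21, 2.21 and 2.19 log2 within the 3 slides. Galunisertib added to TGFβ1 lowered it by 2.66 log2 (SE 0.19, adjusted p = 4.92e-06), a value that depends on the floor. With the normexp background these were 0.88 and -1.19 log2, and both passed the test. Galunisertib alone gave a difference of -0.60 log2 (SE 0.19, adjusted p = 0.088), and TGFβ1 in the presence of galunisertib one of 0.14 log2 (95% interval -0.27 to 0.55, adjusted p = 0.64).

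Across the 8 groups, the mean KLF7 level ran from SNU-449 with TGFβ1 (0.20 ± 0.10, SD, n = 3) through SNU-449 control (-0.62 ± 0.05) to PLC/PRF/5 with TGFβ1 (-1.06 ± 0.03) and SNU-449 with both agents (-1.19 ± 0.32). It went on to SNU-449 with galunisertib (-2.82 ± 0.13), PLC/PRF/5 control (-3.26 ± 0.03), PLC/PRF/5 with both agents (-3.71 ± 0.43) and PLC/PRF/5 with galunisertib (-3.86 ± 0.24). PLC/PRF/5 with TGFβ1 overlapped with SNU-449 with both agents. PLC/PRF/5 with both agents overlapped with the control and the galunisertib group of that line, and the other neighbours in this order did not overlap. Over the 12 SNU-449 arrays, the genes most like KLF7 by Pearson's r were H1-9P (0.991), FOXS1 (0.991) and COL1A1 (0.990), and over the 12 PLC/PRF/5 arrays they were MACROH2A2 (0.987), VAT1L (0.986) and FURIN (0.985). These correlations are descriptions over arrays that share lines, treatments and slides.

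KLF4, a factor of epithelial differentiation and of pluripotency, responded to TGFβ1 in SNU-449 and stayed near the dim end of the arrays in all other groups. Its single promoter window in the table, on the minus strand of GRCh38.p14 and marked as above, holds 4 GC boxes and neither of the other motifs.
KLF4, chr9:107489770-107490019: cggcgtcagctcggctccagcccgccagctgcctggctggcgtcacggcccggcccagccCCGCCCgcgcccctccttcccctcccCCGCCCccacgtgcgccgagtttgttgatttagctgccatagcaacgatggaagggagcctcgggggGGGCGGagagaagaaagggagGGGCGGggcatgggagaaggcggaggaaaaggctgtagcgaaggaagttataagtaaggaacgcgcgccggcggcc
In SNU-449, KLF4 stood at -3.58, -3.51 and -3.07 in control cultures and at -2.50, -2.10 and -2.30 with TGFβ1. It stood at -3.30, -3.12 and -3.51 with galunisertib and at -3.51, -3.08 and -3.42 with both agents. The TGFβ1 arrays lay above the other 9, which overlapped with each other. KLF4 rose with TGFβ1 by 1.08 log2 (SE 0.18, adjusted p = 0.0031) and fell by 1.04 log2 (SE 0.18, adjusted p = 0.00256) when galunisertib was added to TGFβ1. With galunisertib present, TGFβ1 gave a difference of -0.03 log2 (95% interval -0.42 to 0.36). These levels are close to the background, where the offset of the normexp setting shrinks changes. With the normexp background the rise was 0.19 log2 and did not pass the test, nor did the fall, at 0.25 log2. By the methods' t-test the rise had an adjusted p of 0.0541.

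KLF4 in PLC/PRF/5 ranged from -3.75 to -2.83 over the 12 arrays, and every group overlapped with every other. Its difference with TGFβ1 was -0.23 log2 (95% interval -0.73 to 0.28). The TGFβ1 effect on KLF4 was 1.31 log2 higher in SNU-449 (SE 0.30, adjusted p = 0.0082).

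KLF2, known from endothelial cells and T cells as a factor of quiescence, was the KLF raised by galunisertib in SNU-449. Its promoter window, on the plus strand of GRCh38.p14 and marked as above, is 80% G or C and holds 4 GC boxes and no KLF or SMAD box.
KLF2, chr19:16324576-16324825: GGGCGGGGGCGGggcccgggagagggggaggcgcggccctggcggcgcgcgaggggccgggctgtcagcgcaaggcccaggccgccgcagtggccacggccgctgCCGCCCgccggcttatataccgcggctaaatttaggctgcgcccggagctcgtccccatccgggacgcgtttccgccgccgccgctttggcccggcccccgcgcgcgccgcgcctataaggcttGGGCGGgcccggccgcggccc
In SNU-449, KLF2 stood at 0.62, 0.47 and 0.56 in control cultures and at 0.39, 0.36 and 0.42 with TGFβ1. It stood at 1.92, 1.84 and 1.58 with galunisertib and at 1.30, 0.89 and 1.46 with both agents. All 6 arrays with galunisertib lay above all 6 without it. KLF2 rose with galunisertib alone by 1.23 log2 (SE 0.14, adjusted p = 0.00106), a 2.34-fold change, and by 0.83 log2 (SE 0.14, adjusted p = 0.00284) when galunisertib was added to TGFβ1. TGFβ1 gave -0.16 log2 (adjusted p = 0.559) without galunisertib and -0.56 log2 (adjusted p = 0.086) with it. By the methods' t-test the rises had adjusted p values of 0.0577 and 0.0509, and the second was 0.67 log2 and did not pass with arrays scaled to their median. With the normexp background they were 0.80 and 0.42 log2, and both passed.

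KLF2 in PLC/PRF/5 ranged from -0.85 to -0.25. It rose by 0.34 log2 (SE 0.10, adjusted p = 0.0202) when galunisertib was added to TGFβ1, and galunisertib alone gave 0.28 log2 (SE 0.10, adjusted p = 0.131). The rise was lost in 9 of 22 refits. It did not pass with the normexp background (0.24 log2, adjusted p = 0.0854), the percentile over detected probes (0.20 log2, adjusted p = 0.102), array-median scaling (0.52 log2) or no scaling (0.34 log2), by the methods' t-test (adjusted p = 0.107), or without TGFβ1 replicate 1 or 3 or replicate 1 or 2 of the combination, at 0.28 to 0.32 log2. The effect of galunisertib alone was 0.95 log2 larger in SNU-449 (SE 0.18, adjusted p = 0.00248), and 0.63 log2 larger with the normexp background.

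KLF10 and KLF11, which repress through SIN3A, stood higher in the control cultures of SNU-449 than in those of PLC/PRF/5. Both had their highest mean with TGFβ1 in each line. KLF10 in PLC/PRF/5 stood at -0.36, -0.52 and -0.16 in control cultures and at 0.38, 0.55 and 0.50 with TGFβ1. With galunisertib it stood at -0.26, -0.44 and -0.00022, and with both agents at 0.10, -0.46 and -0.12. The TGFβ1 arrays lay above the other 9. KLF10 rose with TGFβ1 by 0.82 log2 (SE 0.16, adjusted p = 0.0065) and fell by 0.63 log2 (SE 0.16, adjusted p = 0.00855) when galunisertib was added. The fall did not pass with arrays scaled to their median, at -0.46 log2, with no scaling, or by the methods' t-test.

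In SNU-449, KLF10 stood at 0.97, 0.75 and 1.29 in control cultures and at 1.74, 1.75 and 1.86 with TGFβ1. With galunisertib it was spread from 0.31 to 1.39, and with both agents from 1.07 to 1.40. Here too the TGFβ1 arrays lay above the other 9, but the spread within groups was larger, and the difference of 0.78 log2 with TGFβ1 (SE 0.24, adjusted p = 0.0696) did not pass the test. The TGFβ1 effects on KLF10 in the 2 lines differed by -0.04 log2, SNU-449 minus PLC/PRF/5, with a 95% interval of -0.66 to 0.58.

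KLF11 stood at 1.59, 1.95 and 1.90 in SNU-449 control cultures and at 2.08, 2.13 and 2.20 with TGFβ1, while it stood at 1.66, 1.62 and 1.66 with both agents. The TGFβ1 arrays lay above the others of the line. KLF11 fell by 0.49 log2 (SE 0.11, adjusted p = 0.0128) when galunisertib was added to TGFβ1 in SNU-449, a call that was lost without TGFβ1 replicate 3, where the difference was -0.46 log2, and with arrays scaled to their median. TGFβ1 gave 0.32 log2 in SNU-449 (adjusted p = 0.101) and 0.36 in PLC/PRF/5 (adjusted p = 0.0985), neither of which passed the test. The table holds 2 KLF11 windows, on the plus strand of GRCh38.p14. Both start sites lie inside the gene, whose annotated 5′ end is at chr2:10043550. The window at chr2:10043971-10044220 holds 6 GC boxes, 1 KLF box and no SMAD box. Shown here is the other one, which holds 2 SMAD boxes beside 2 GC boxes.
KLF11, chr2:10043579-10043828: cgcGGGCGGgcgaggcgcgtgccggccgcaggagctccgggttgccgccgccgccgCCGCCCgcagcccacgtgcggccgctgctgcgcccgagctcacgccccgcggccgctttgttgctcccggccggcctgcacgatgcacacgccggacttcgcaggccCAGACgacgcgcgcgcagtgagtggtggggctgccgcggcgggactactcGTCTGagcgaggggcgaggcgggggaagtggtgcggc
KLF10 has no window shown here.

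Over the 13 windows used here, of 8 KLFs, 8 held a GC box, 5 a KLF box and 3 a SMAD box. Windows on chromosome 8, which holds KLF10, were left out of this count but not out of the count over all genes. Of all 35116 windows of this length, 42.6% held a GC box, 54.7% a KLF box and 38% a SMAD box. A match is a run of letters and does not show that a factor binds there.

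KLF9, known as a gene induced by glucocorticoid and thyroid hormone, separated the lines more than any other of the 9 tested KLFs. It stood at 0.96, 1.10 and 1.23 in PLC/PRF/5 control cultures and in those of SNU-449 at -3.12, -2.77 and -2.79. The difference was -3.99 log2, SNU-449 minus PLC/PRF/5 (SE 0.17, adjusted p = 5.4e-14), a 15.9-fold change, and -2.57 log2 with the normexp background. In SNU-449, no comparison of KLF9 passed the test. KLF9 in PLC/PRF/5 stood at 0.93, 1.04 and 1.02 with TGFβ1 and at 1.57, 1.30 and 1.39 with both agents, a rise of 0.42 log2 (SE 0.10, adjusted p = 0.00889) that did not pass with no scaling or in the fit over all 24 arrays.

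KLF5, an activator tied to epithelial proliferation, had its highest mean in the presence of galunisertib in each line. With TGFβ1, PLC/PRF/5 stood at 1.58, 1.80 and 1.76, and with both agents it stood at 2.63, 2.25 and 2.29, and these groups did not overlap. It rose there by 0.68 log2 (SE 0.17, adjusted p = 0.00966), which did not pass with no scaling. In SNU-449 it stood at 0.12, 0.38 and 0.53 in control cultures, at 0.06, 0.06 and -0.13 with TGFβ1, and at 0.83, 0.69 and 0.95 with galunisertib. The galunisertib arrays lay above the controls, with a difference of 0.48 log2 (SE 0.13, adjusted p = 0.0539) that did not pass the test.

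KLF3, the CtBP-binding repressor, moved little. It rose by 0.39 log2 (SE 0.12, adjusted p = 0.0306) when galunisertib was added to TGFβ1 in PLC/PRF/5, from 2.61, 2.61 and 2.66 to 3.16, 2.95 and 2.93. That call was lost in 11 of 22 refits. It did not pass with quantile normalization (0.20 log2, adjusted p = 0.234), the percentile over detected probes (0.25 log2, adjusted p = 0.117), the normexp background (0.37 log2, adjusted p = 0.0558), array-median scaling (0.56 log2), no scaling (0.39 log2), no filter (adjusted p = 0.0746) or the replicate number as a block (adjusted p = 0.0511). It was also lost without any 1 TGFβ1 array or without replicate 1 of the combination, at 0.31 to 0.40 log2. In SNU-449, KLF3 ranged from 1.67 to 2.26 and no comparison of it passed the test.

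KLF6, which takes part in the activation of hepatic stellate cells, was close to level. Its brighter probe ranged from 4.66 to 5.13 over the SNU-449 arrays and from 4.72 to 5.21 over the PLC/PRF/5 arrays. No comparison of 2 groups passed the test. The second KLF6 probe, which carries another transcript accession of the gene, was well above background on 19 of 24 arrays. In SNU-449 the second probe stood at -3.57, -2.98 and -3.15 with TGFβ1 and at -2.66, -2.35 and -2.38 with both agents, so it ran against the brighter probe. In a fit over all 25779 probes tested in SNU-449, the addition of galunisertib to TGFβ1 gave 0.77 log2 (SE 0.19, adjusted p = 0.0244) for the second probe and -0.22 log2 (SE 0.08, adjusted p = 0.109) for the brighter one. This fit was chosen after the values were seen.

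Between the control cultures of the lines, 7 of the 9 tested KLFs differed, beside 68.5% of all 17903 genes tested in that comparison, 34.6% being higher and 33.9% lower in SNU-449. KLF2, KLF7, KLF10 and KLF11 were higher in SNU-449, by 1.30, 2.64, 1.35 and 2.33 log2. KLF3, KLF5 and KLF9 were higher in PLC/PRF/5, with differences of -0.58, -1.67 and -3.99 log2, SNU-449 minus PLC/PRF/5. KLF4 (-0.15 log2, 95% interval -0.60 to 0.30) and KLF6 (-0.04 log2, -0.21 to 0.13) did not pass the test. The difference of KLF3 did not pass when arrays were scaled to their median, at -0.21 log2, or not scaled, at -0.47 log2. The difference of KLF7 was 1.24 log2 with the normexp background. Each line is a single line with 3 cultures, so these values compare 2 lines.

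**Figure D2:**
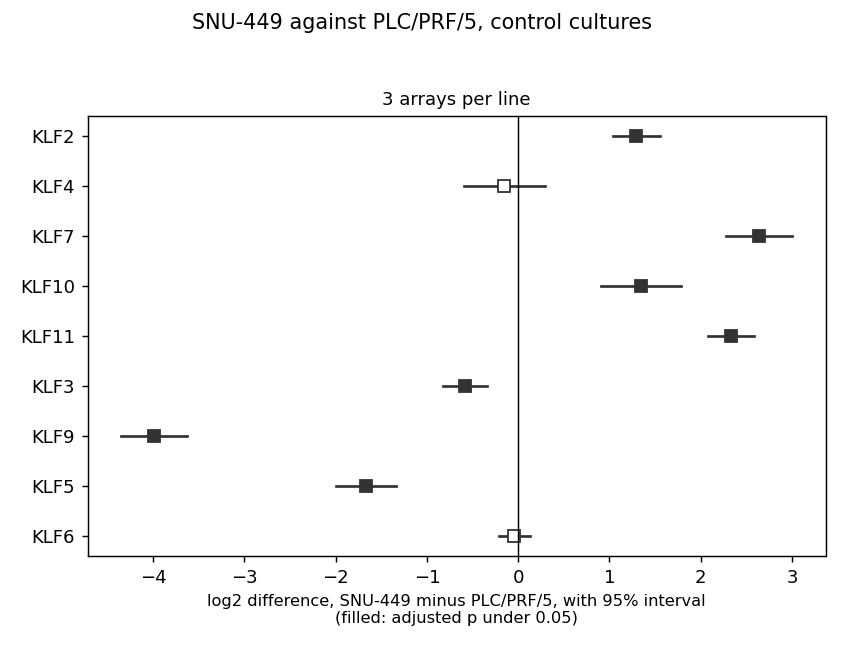
Log2 difference between SNU-449 and PLC/PRF/5 control cultures (3 arrays per line) for 9 KLF genes, with the 95% interval from limma and filled squares for an adjusted p under 0.05. KLF7, KLF11, KLF10 and KLF2 lie to the right of 0, KLF3, KLF5 and KLF9 to the left, and the intervals of KLF4 and KLF6 cross 0.

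With TGFβ1, 2 of 9 KLFs passed the test in SNU-449 (KLF4 and KLF7, both higher), beside 10.5% of 16102 genes. In PLC/PRF/5, 2 of 9 passed (KLF7 and KLF10, both higher), beside 13.5% of 16685 genes. The median change over the 9 KLFs was 0.25 log2 in SNU-449 and -0.01 in PLC/PRF/5, against medians over all genes of 0.02 and -0.04.

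With galunisertib present, TGFβ1 moved 1 of 9 KLFs past the test in SNU-449 (KLF7), beside 1.9% of genes, and 2 when combination replicate 3 was left out (KLF2 and KLF7). It moved 0 of 9 in PLC/PRF/5 by limma, beside 8.55% of genes, with 2 KLFs at an unadjusted p under 0.05 and 0 by the methods' t-test. The difference between the TGFβ1 effects with and without galunisertib was tested as an interaction. In PLC/PRF/5, 1 of 9 KLFs passed (KLF7, -2.06 log2, SE 0.26, adjusted p = 0.00167, and -0.998 log2 with the normexp background), beside 8.76% of genes, and KLF10 joined it when the replicate number was a block or combination replicate 1 was left out, and KLF3 when control replicate 1 was left out, with 2 KLFs passing each time. In SNU-449, 2 of 9 passed, beside 2.62% of genes, namely KLF4 (-1.11 log2, SE 0.25, adjusted p = 0.0468) and KLF6 (-0.51 log2, SE 0.11, adjusted p = 0.0457). Both stood at the edge of the threshold. KLF6 passed in none of the fits that left out 1 of the 12 SNU-449 arrays, and KLF4 only in those without control replicate 3, galunisertib replicate 3 or combination replicate 2, so that 0 or 1 KLF passed. With the replicate block, 0 passed. KLF7 in SNU-449 had an interaction of the opposite sign, 0.82 log2 (SE 0.20, adjusted p = 0.0708), which did not pass the test.

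**Figure D3:**
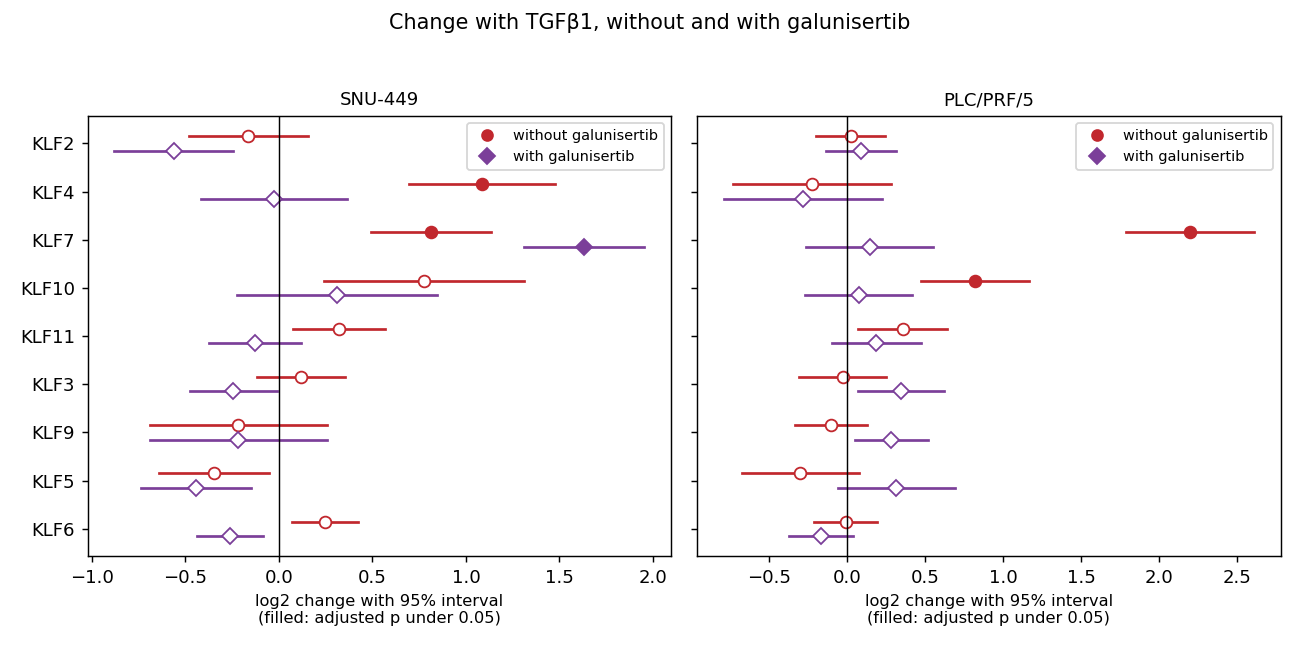
Log2 change with TGFβ1 for 9 KLF genes in each line, without galunisertib (circles) and in its presence (diamonds), with 95% intervals from limma and filled symbols for an adjusted p under 0.05. The 2 lines have their own horizontal scales. KLF7 shows 0.81 and 1.63 log2 in SNU-449, and 2.20 and 0.14 log2 in PLC/PRF/5.

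With galunisertib alone, 2 of 9 KLFs passed the test in SNU-449 (KLF2 higher, KLF7 lower), beside 7.43% of genes. In PLC/PRF/5, 0 of 9 passed by limma, beside 5.42% of genes, with 3 KLFs (KLF2, KLF6 and KLF7) at an unadjusted p under 0.05 and 0 by the methods' t-test. Added to TGFβ1, galunisertib moved 4 of 9 KLFs in SNU-449 (KLF2 higher, KLF4, KLF7 and KLF11 lower), beside 17.1% of genes, 9.72% higher and 7.35% lower. It moved 6 of 9 in PLC/PRF/5 (KLF2, KLF3, KLF5 and KLF9 higher, KLF7 and KLF10 lower), beside 39.1% of genes, 25.8% higher and 13.3% lower. The 4 rises there were of 0.34 to 0.68 log2, and with arrays scaled to their median 3 of the 6 passed and with no scaling 1. KLF2 and KLF3 were both lost with the normexp background and with the percentile over detected probes, and KLF2 and KLF10 by the methods' t-test. The TGFβ1 group is shared by these comparisons and those of TGFβ1 against control, so their values are not independent.

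**Figure D4:**
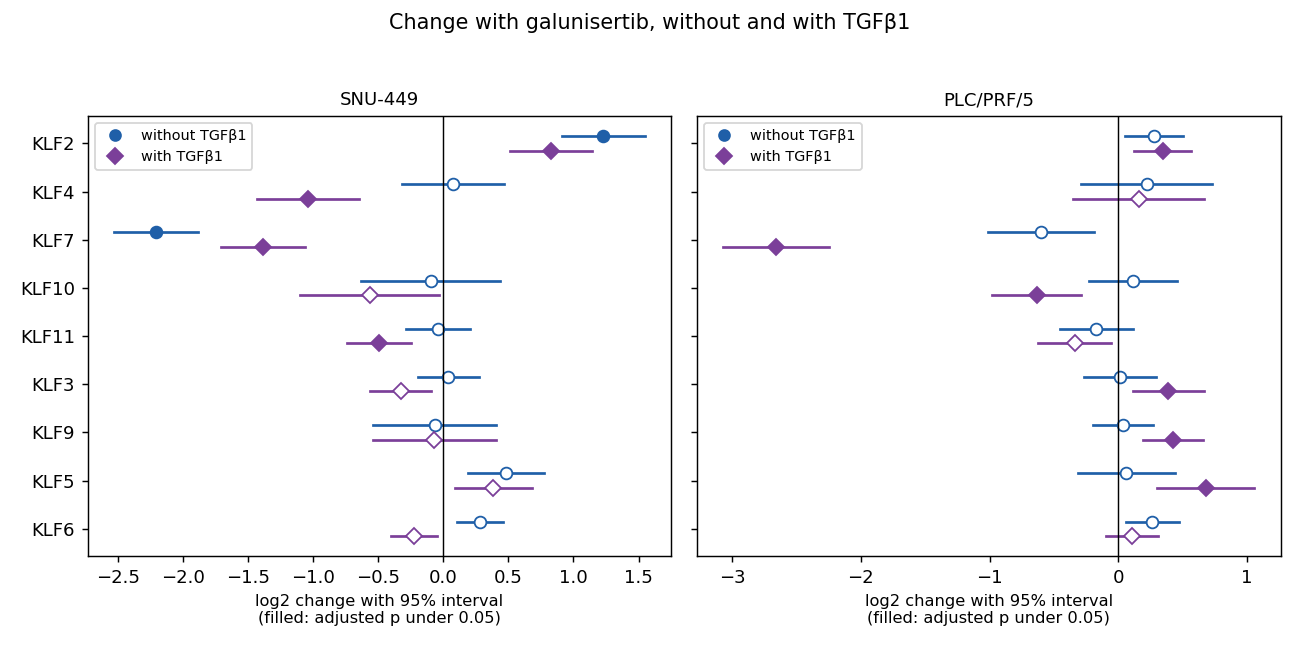
Log2 change with galunisertib for 9 KLF genes in each line, without TGFβ1 (circles) and in its presence (diamonds), with 95% intervals from limma and filled symbols for an adjusted p under 0.05. The 2 lines have their own horizontal scales. In SNU-449, KLF2 rose in both settings and KLF7 fell in both, and in PLC/PRF/5 the filled symbols are all diamonds, with KLF7 at -2.66 log2.

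A fold above 2 and an unadjusted P under 0.001 were also applied, here to limma's p. The study drew its plots at these limits with its own test and listed its galunisertib genes at a looser P. At these limits, 1 KLF passed with TGFβ1 in SNU-449 (KLF4, beside 2.33% of genes) and 1 in PLC/PRF/5 (KLF7, beside 1.1%). With galunisertib alone, 2 passed in SNU-449 (KLF2 and KLF7, beside 1.14%) and 0 in PLC/PRF/5 (beside 0.342%). For the combination against TGFβ1, 2 passed in SNU-449 (KLF4 and KLF7, beside 3.81%) and 1 in PLC/PRF/5 (KLF7, beside 3.09%). Against galunisertib alone, 1 passed in SNU-449 (KLF7, beside 0.702%) and 0 in PLC/PRF/5 (beside 0.294%). Between the control cultures, 6 passed, all of the 7 above but KLF3, beside 34.3% of genes.

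The difference between the lines in the TGFβ1 effect passed the test for 2 of 9 KLFs, beside 8.62% of genes. It was 1.31 log2 for KLF4, as given above, and -1.39 log2 for KLF7 (SE 0.24, adjusted p = 0.00082), whose rise was larger in PLC/PRF/5. With the normexp background these were 0.45 and -0.29 log2 and neither passed, and KLF7 did not pass with the authors' table or the floor at 50%, nor KLF4 with no scaling. The difference in the effect of galunisertib alone also passed for 2 of 9, beside 5.87% of genes, at 0.95 log2 for KLF2 and -1.61 log2 for KLF7 (SE 0.24, adjusted p = 0.00044), whose fall was larger in SNU-449. In PLC/PRF/5, 1 of the 3 galunisertib arrays was at the KLF7 floor, which bounds the fall that could be seen there. With the normexp background the KLF7 value was -0.89 log2. KLF7 did not pass with the authors' table, nor KLF2 with arrays scaled to their median or not scaled. Over the 4 conditions of a line, limma's F-test passed 6 of 9 KLFs in SNU-449, beside 22.2% of genes, and 6 of 9 in PLC/PRF/5, beside 44.7%. All 31 KLF changes that passed a test in the 13 comparisons had the same sign within each of the 3 slides. They were selected on these same arrays, so the shared sign is not separate support. With TGFβ1 in SNU-449, the KLFs that did not pass also kept their sign on all 3 slides.

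The other members of the family were read from a list of 16, the remaining KLFs and the related SP factors, of which 14 were tested in SNU-449 and 13 in PLC/PRF/5. With TGFβ1, 2 of 14 rose in SNU-449, beside 10.5% of all genes that passed in either direction. They were KLF13, by 0.56 log2 (SE 0.12, adjusted p = 0.0118), and SP5, by 0.84 log2 (SE 0.22, adjusted p = 0.0348). For PLC/PRF/5, limma passed 0 with TGFβ1, with 0 at an unadjusted p under 0.05, and 0 with galunisertib alone, with 1 at an unadjusted p under 0.05. KLF13, a SIN3A-binding relative of KLF9, stood at 2.73, 2.98 and 2.99 in SNU-449 control cultures, at 3.37, 3.53 and 3.48 with TGFβ1 and at 2.22, 2.29 and 2.53 with galunisertib. These 3 groups did not overlap, and KLF13 fell with galunisertib by 0.55 log2 (adjusted p = 0.0197). With galunisertib in SNU-449, 2 of 14 rose and KLF13 alone fell, beside 7.43% of all genes. SP1, the founding member of the SP group, rose by 0.78 log2 (adjusted p = 0.00932) and SP6 by 1.07 log2 (adjusted p = 0.0286). Between the control cultures, 6 of 15 were higher and 6 lower in SNU-449, beside 34.6% and 33.9% of all genes. KLF12, a CtBP-binding repressor like KLF3, was at least 31.1-fold higher in SNU-449, where it stood at 0.82, 1.12 and 1.20, while 0 of the 12 PLC/PRF/5 arrays had it well above background.

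Of 12 genes for cofactors and ubiquitin ligases of KLFs, all tested in each line, TGFβ1 raised 2 and lowered 1 in SNU-449, beside 10.5% of all genes, and raised 1 in PLC/PRF/5, beside 13.5%. SMURF1, a ubiquitin ligase of the TGFβ pathway, rose in both lines, by 0.65 log2 (adjusted p = 0.0345) and 0.62 log2 (adjusted p = 0.032). KAT2B, an acetyltransferase that serves as a coactivator, fell in SNU-449 by 0.59 log2 (adjusted p = 0.0121). HDAC1, a deacetylase of the SIN3A complex, rose there by 0.38 log2 (adjusted p = 0.0231). Of 6 genes of the kinase cascade and MEF2 factors known to induce KLF2 and KLF4, 5 were tested. With TGFβ1, 2 of 5 rose in SNU-449, beside 10.5% of all genes, and 1 of 5 in PLC/PRF/5, beside 13.5%. MEF2A, a MEF2 factor, rose in both lines, by 0.40 log2 (adjusted p = 0.0461) and 0.31 log2 (adjusted p = 0.0302). Its mean was not lower with both agents (1.52 in SNU-449 and 0.71 in PLC/PRF/5) than with TGFβ1 alone (1.51 and 0.56). MAPK7, the ERK5 kinase, rose in SNU-449 from 3.91, 4.08 and 4.10 to 4.54, 4.52 and 4.47, by 0.48 log2 (adjusted p = 0.0031). Between the control cultures, 3 of the 5 were higher in SNU-449, beside 34.6% of all genes, and MAPK7 was 2.81 log2 higher in SNU-449 (adjusted p = 2.6e-17).

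Of 12 genes described as KLF targets, 9 were tested in SNU-449 and 10 in PLC/PRF/5. With TGFβ1, 4 of 9 rose and 1 fell in SNU-449, beside 10.5% of all genes, and 3 of 10 rose and 1 fell in PLC/PRF/5, beside 13.5%. With galunisertib, 1 rose and 4 fell in SNU-449, beside 7.43% of all genes, and 1 rose and 1 fell in PLC/PRF/5, beside 5.42%. With TGFβ1, PDGFA, a growth factor gene with GC-rich control elements, rose by 1.95 log2 in SNU-449 (adjusted p = 2.3e-06) and 1.08 log2 in PLC/PRF/5 (adjusted p = 0.0016). THBD, which encodes thrombomodulin and is a KLF2 target in endothelium, rose with galunisertib in PLC/PRF/5 from -0.33, -0.23 and 0.02 to 1.31, 1.17 and 1.16, by 1.39 log2 (SE 0.13, adjusted p = 0.00059). In SNU-449, where KLF2 rose, THBD stood at 1.92, 1.86 and 1.89 in control cultures and at 2.00, 1.90 and 2.01 with galunisertib, and its difference did not pass the test. Several targets on the list, SMAD7 among them, also answer to TGFβ signalling directly, and the part of any KLF in their changes was not tested.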

How the data were processed

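RNA of 24 cultures was hybridised to one-colour Agilent arrays, 1 array per culture, with 62976 spots. The deposited intensity values were made by the authors with Agilent Feature Extraction 10.7.3.1, which subtracts background and detrends within an array, and the deposited files also hold other columns, the 0 or 1 flags of each spot. A deposited table of log2 values, normalized by the authors in GeneSpring, was used as an alternative. It matched the scanner values with r = 0.999 and a slope of 1.00 over 19269 probes, each probe being centred on its mean. The column medians of the authors' table were -0.057 to 0.057.

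Each processed intensity was set over its array's 75th percentile and floored at 5.70% of it, the median over arrays of the weakest spot well above background, before log2 was taken. Outlier spots (111 to 216 per array) and control spots were left out, and 0 spots were saturated. Probes that all arrays of 1 group or more showed well above background were tested, and the probe with the highest mean stood for its gene. Probes were named through RefSeq accessions of GRCh38.p14 (31104 probes) or LNCipedia (10719), and 16378 had no name. The array was designed on hg19, so that RefSeq served for names and promoter sequences only.

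The models were linear, fitted by limma 3.58.1 (R 4.3.3) over the 12 arrays of a line, and over 24 for comparisons between lines, with Benjamini-Hochberg adjustment over all genes. The scripts were tested on simulated data. The KLFs, the related gene lists and the genes named were chosen with earlier results of these data known. All 10 KLFs were named, of each related list only genes among the 5 with the largest change past the test in a comparison (THBD in SNU-449 is given beside its change in the other line), and, for the KLF with the smallest F-test p, the 3 genes of highest Pearson r. Alternatives changed the background (normexp with offset 50, on median signals, since mean signals were not used here), scaling, filter, floor, choice of probe, table and test, added the replicate number as a block, or left out 1 array at a time. A floor at 150% and a fit over all probes were added after seeing the data. The replicate number is also the slide, of 8 arrays each. Same-numbered arrays deviated together (every correlation of deviations over 0.1) for TGFβ1 against control in SNU-449 (r of 0.127 to 0.224) and PLC/PRF/5 (0.171 to 0.305) and for the combination against TGFβ1 in SNU-449 (0.100 to 0.267), and not in the other 5 comparisons of 2 groups. Precision is limited by there being 3 arrays in each group.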

Additional observations from a re-analysis of the deposited data

Results flagged for a closer look

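For 3 KLFs, the effect of a treatment differed between the lines by the test of the difference itself. The TGFβ1 effect, SNU-449 minus PLC/PRF/5, differed by 1.31 log2 for KLF4 and by -1.39 log2 for KLF7. The galunisertib effect differed by 0.95 log2 for KLF2 and by -1.61 log2 for KLF7. Each of these calls was lost in some refits. With the normexp background, the TGFβ1 differences were 0.45 log2 for KLF4 and -0.29 log2 for KLF7, and neither passed. KLF7 did not pass for either treatment with the authors' table, nor KLF2 with arrays scaled to their median or not scaled. KLF7 had 1 of the 3 PLC/PRF/5 galunisertib arrays at the floor, and KLF4 was dim in both lines. The causes of these differences were not tested.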

How the results depend on the processing

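Of 697 refits of the 31 KLF changes that passed a test, 615 kept direction and call, 81 kept the direction alone and 1 reversed, the KLF6 interaction in SNU-449, at 0.30 log2 with the mean of both probes (adjusted p = 0.358). The KLF7 changes with TGFβ1 in each line, with galunisertib in SNU-449 and with the combination against TGFβ1 in each line kept their call in every refit run, but not their size. With the normexp background, the change with TGFβ1 in PLC/PRF/5 went from 2.20 to 0.88 log2, that with galunisertib in SNU-449 from -2.21 to -1.08, and that with the combination against TGFβ1 in PLC/PRF/5 from -2.66 to -1.19.

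Counts of KLFs that passed moved by over 1.5 times as follows. With TGFβ1 in SNU-449, 2 became 1 by the plain t-test and 4 over all 24 arrays. With galunisertib in SNU-449, 2 became 4 with probes above background on every array, with the floor at 150% and over 24 arrays, and 1 by the t-test. For the combination against TGFβ1 in SNU-449, 4 became 2 with scaling to the array median. Against galunisertib, 1 became 2 with normexp or over 24 arrays and 0 by the t-test or with the compared groups only. The 2 interactions in SNU-449 became 0 with normexp, the fit over all probes or the replicate block, 1 (KLF4) with array-median scaling, no scaling, quantile normalization or the mean of probes, 1 (KLF6) with the authors' table, no filter or the floor at 50%, and 1 with the percentile over detected probes, where KLF4 (-0.996 log2, adjusted p = 0.078) and KLF6 (-0.39 log2, adjusted p = 0.144) were both lost and KLF7 passed in their place. In PLC/PRF/5, TGFβ1 gave 1 in place of 2 with probes above background on every array, which drops KLF7. Galunisertib gave 1 in place of 0 with the floor at 150% or over 24 arrays, in both cases KLF7. The combination against TGFβ1 gave 3 with array-median scaling and 1 with no scaling in place of 6, and smaller drops to 4 with normexp or the t-test and to 5 with the percentile over detected probes, quantile normalization, no filter, probes above background on every array or the replicate block. The interaction gave 2 in place of 1 with the percentile over detected probes or the replicate block. Of the differences between lines, 2 for TGFβ1 became 0 with normexp and 1 with no scaling, the authors' table, probes above background on every array or the floor at 50%, and 2 for galunisertib became 1 with array-median scaling, no scaling, the authors' table or probes above background on every array. The causes were not tested. Leaving out 1 array gave 2 to 2, 2 to 3, 3 to 5, 1 to 2 and 0 to 1 KLFs in the 5 SNU-449 comparisons in the order above, 2 to 2, 0 to 0, 4 to 6, 0 to 0 and 1 to 2 in the same comparisons of PLC/PRF/5, 7 to 7 between the controls, and 2 to 2 for each difference between lines.

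The replicate block, which pairs arrays of a slide, took the interactions of KLF4 and KLF6 in SNU-449 (0 passed) and the rise of KLF3 with the combination against TGFβ1 in PLC/PRF/5 (adjusted p = 0.0511) out of the calls, added the KLF10 interaction in PLC/PRF/5 and changed no other call. Scaling to the array median moved the median of all genes from -0.06 to 0.28 log2 between the controls and from 0.06 to 0.23 for the combination against TGFβ1 in PLC/PRF/5, where the share of higher calls was 66.0%, against 82.8% with the array median and 44.7% with no scaling. Levels near the floor, as of KLF4 and of KLF7 in PLC/PRF/5, limit what could be measured.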
